A study of Mus musculus with 6 samples.

Results

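The genes described here are the ATR-CHK1 and ATM checkpoint genes of double-positive (DP) thymocytes. They are the 10 rows of the deposited table whose symbol was Atr, Atrip, Topbp1, Rad17, Clspn, Chek1, Atm, Chek2, Wee1 or Cdc25a, of 22322 genes in all. Each of the 10 genes passed the filter on low counts, which kept 11488 genes. RNA-Seq was performed on CD4+CD8+ DP thymocytes sorted from C57BL/6 mice of mixed sex aged 4 to 7 weeks. The 3 control libraries, which the labels call WT, came from Paxbp1fl/fl littermates, and the 3 cKO libraries came from Paxbp1fl/fl mice with the Lck-cre transgene, which drives Cre in the T cell lineage. Both groups therefore carried the floxed alleles, in which exon 8 of Paxbp1 is flanked by loxP sites. Lck-cre mice without floxed alleles were not analysed here. The comparison asks which transcripts differ in DP cells that lack the nuclear protein Paxbp1. No label says whether the libraries of a group came from separate mice, so the p-values measure the spread between these samples, which may be technical.

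The ATR kinase, carried by its partner ATRIP, is recruited to RPA-coated single-stranded DNA at stalled replication forks, where TOPBP1 activates it next to the clamp loaded by RAD17. Claspin, the product of Clspn, then brings CHK1 to ATR, and CHK1 holds back the phosphatase CDC25A while the kinase WEE1 keeps the cyclin-dependent kinases phosphorylated and inactive. ATM responds to double-strand breaks, among them the breaks that RAG makes in developing thymocytes, and acts through CHK2. Much of this control is by phosphorylation and protein turnover, which transcript levels do not measure.

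Of the 10 checkpoint genes, 4 rose in cKO DP thymocytes and 0 fell. Chek1 rose 2.64-fold and Wee1 2.11-fold, Topbp1 rose 1.65-fold and Rad17 1.55-fold. The apical kinase genes Atr and Atm, the ATR partner Atrip, the ATM effector Chek2 and the phosphatase gene Cdc25a each overlapped between the groups on the count scale. Clspn was higher in each cKO library than in any control library and missed the threshold. A gene is said to have risen or fallen where its adjusted p was below 0.05 in the quasi-likelihood test of edgeR, adjusted by the Benjamini-Hochberg method across the 11488 genes, and by that rule 4.47% of all tested genes rose and 5.89% fell. At an unadjusted p below 0.05, 5 of the 10 genes were higher and 0 lower, against 1524 and 1680 of the 11488 tested genes. Counts of other lists at that threshold, given below, are to be read against these numbers. DESeq2 and limma-voom also called 0 of the 10 genes lower. Chek1 and Wee1 passed the stricter call that adds an absolute log2 fold change above 1, as 1.53% of the tested genes did in the upward direction. The cKO and control libraries did not overlap for 5 of the 10 genes, all higher in cKO. Among all tested genes 15.7% stood apart in that direction and 17.3% in the other. The median log2 fold change was 0.41 over the 10 genes and -0.0017 over all tested genes. In sorted bulk samples, more cells of a kind that uses a gene and more RNA of that gene per cell cannot be told apart.

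**Figure D1:**
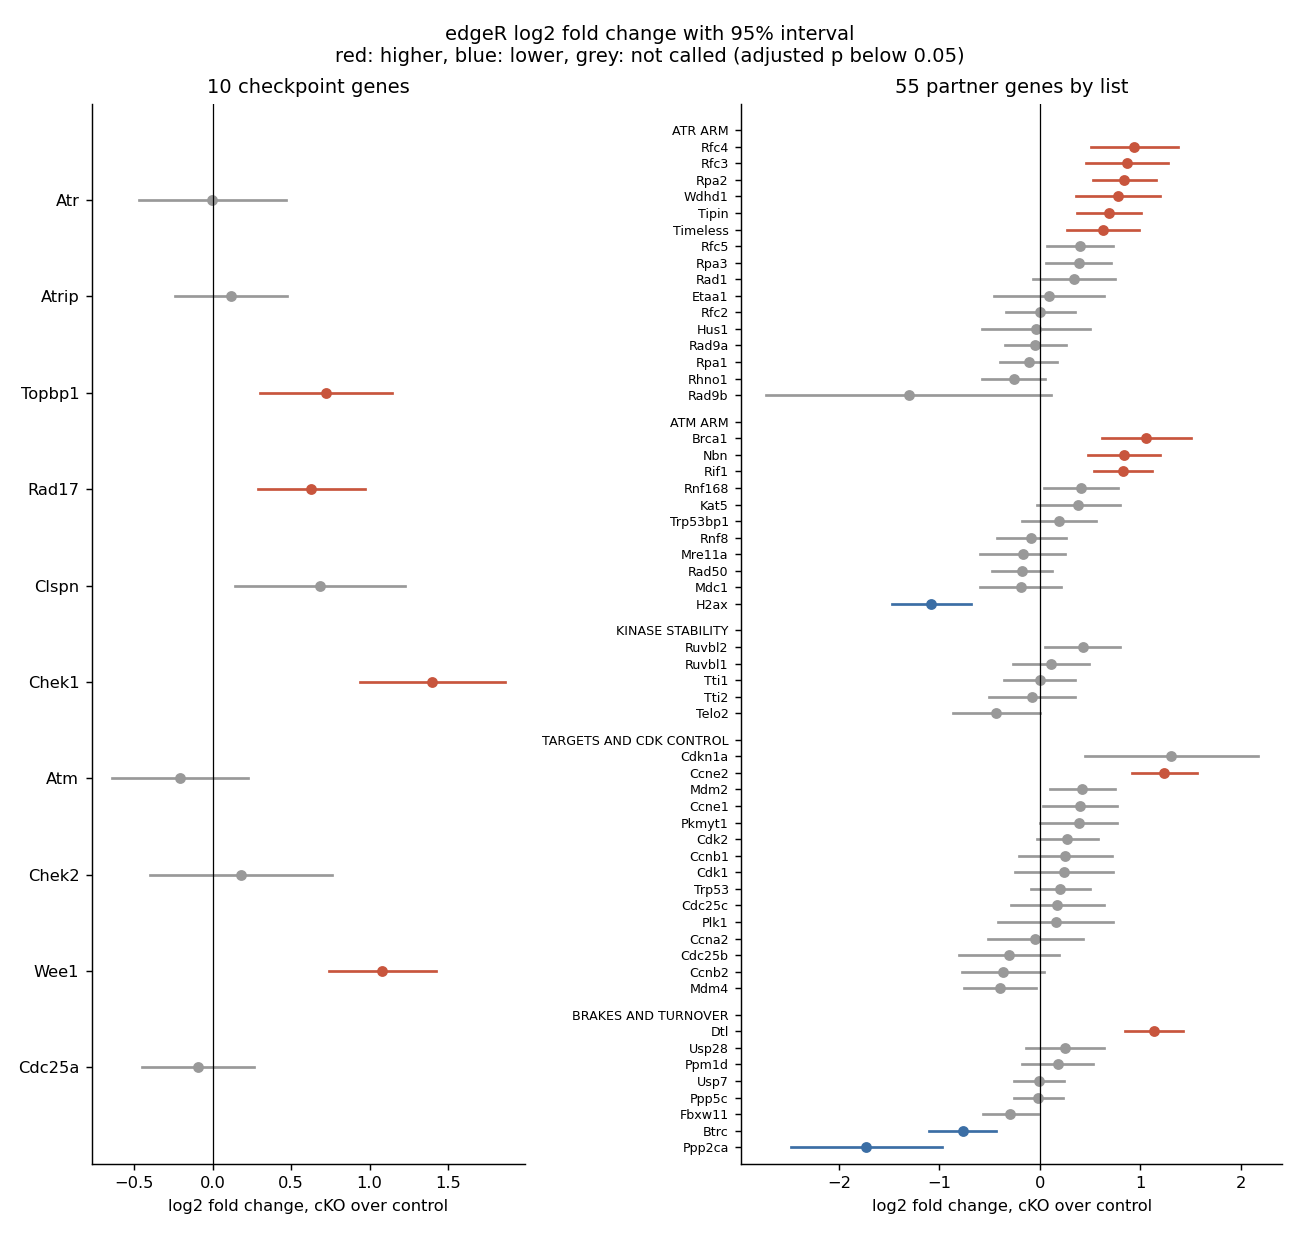
Log2 fold change of cKO over control with its 95% interval (edgeR, n = 3 libraries per group) for the 10 checkpoint genes (left) and 55 partner genes by list (right), red for higher, blue for lower and grey for not called at an adjusted p below 0.05. Chek1, Wee1, Topbp1 and Rad17 lie above 0 at 1.40, 1.08, 0.72 and 0.63, and the estimate for Atr lies at 0.

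Sequencing depth was 18963775 to 26252248 counts per library, 1 count being equal to 0.0381 to 0.0527 CPM (counts scaled to a library of 1e6), and the 10 genes had between 182 and 5604 counts in a library. Library control 1 stood apart from the other controls on the second principal component, at 36.6 against -13.8 and -14.6, and cKO 2 lay at -32.0 against 21.2 and 2.63 for the other cKO libraries. Without cKO 2, 2 of the 10 genes were called, Chek1 and Wee1. Without control 1 the same 4 genes were called, with log2 fold changes of 1.23 for Chek1, 1.01 for Wee1, 0.56 for Topbp1 and 0.79 for Rad17. Paxbp1 itself was counted over the whole gene, of which the deletion removes exon 8 alone, so its level of 40.1, 16.3 and 15.5 CPM in control and 38.8, 47.1 and 49.6 CPM in cKO (adjusted p = 0.0977, edgeR) does not check the deletion. All 10 markers of the labelled cell type, DP thymocytes, were detected and tested, 3 of them fell (Cd8b1, Rag1, Cd1d1), and their summed level was 10243 to 12139 CPM in control and 7485 to 8946 CPM in cKO. The count of 3 became 7 without control 1 and 1 without cKO 3. Of 9 tested markers of the earlier DN and ISP stages 3 rose (1 without control 3, cKO 1 or cKO 3, and 2 without control 2 or cKO 2). The list was mixed, since by sign 5 of the 9 were higher. The groups stood apart for 4 higher and 1 lower in cKO. The sum of the list was 168 to 201 CPM in control and 258 to 278 CPM in cKO. Macrophage markers also moved with genotype, since 4 of 10 tested of 15 listed rose, and their summed level was 36.3 to 78.3 CPM in control and 98.5 to 140.2 CPM in cKO, with Mertk and Marco at 0 in all libraries. That count of 4 became 8 without control 1 and 1 without cKO 3. Of 10 dendritic cell markers 4 were tested and 0 called (1 was higher at an unadjusted p below 0.05, and DESeq2 and limma-voom called 0), and their sum was 11.2 to 12.5 CPM in control and 18.9 to 20.8 CPM in cKO. The NK cell markers had 1 of 2 tested called higher, Gzma (0 without cKO 3), while the other was lower by sign and not called. Together the 8 listed NK cell markers summed to 37.3 to 83.8 CPM in control and 141 to 166 CPM in cKO. The B cell markers had 1 of 2 tested called lower, Cd79b (0 without control 2, cKO 1 or cKO 3). The other tested B cell marker went the other way, higher at an unadjusted p below 0.05 and not called. The list summed to 42.0 to 46.2 CPM in control and 27.0 to 32.3 CPM in cKO. The part of these cells in the results below was not tested.

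The reference promoters of the checkpoint genes were read for the sites of E2F factors, which drive genes at the entry to S phase, because 5 of these genes stood higher in cKO together. RefSeq promoters on GRCm38.p6, of 250 bases before and 50 bases after the start of transcription, were matched by symbol for 9 of the 10 genes, all but Wee1. An E2F match was one of the 8-letter strings TTTCCCGC, TTTGGCGC, TTTCGCGC and TTTGCCGC on either strand. Such a match was found in 4 of the 9 promoters, those of Topbp1, Clspn, Cdc25a and Chek2, against 2.26% of 32851 mouse promoters. Of 9154 tested genes 4.94% had a match in any of their promoters, a share of genes and not of promoters. The same strings without their first T, a choice made after the promoters had been seen, were found in 6 of the 9 and added Chek1 and Atm. They were found in 9.57% of all promoters and, in any promoter, for 19.9% of tested genes. The sequences follow for all 6 promoters, first those with an 8-letter match (Topbp1, which rose, and Clspn, Cdc25a and Chek2, which were not called), then those with a 7-letter match alone (Chek1, which rose, and Atm, which was not called). They run 5′ to 3′ on the strand of the gene, and capitals mark the bases covered by a 7-letter or 8-letter match.
Topbp1, chr9:103305077-103305376, plus strand: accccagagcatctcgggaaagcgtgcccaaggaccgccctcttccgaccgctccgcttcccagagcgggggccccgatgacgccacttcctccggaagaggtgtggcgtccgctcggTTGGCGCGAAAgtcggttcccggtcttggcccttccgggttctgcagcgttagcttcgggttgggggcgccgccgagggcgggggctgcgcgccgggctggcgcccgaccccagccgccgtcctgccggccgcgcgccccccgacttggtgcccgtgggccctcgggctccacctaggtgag
Clspn, chr4:126556730-126557029, plus strand: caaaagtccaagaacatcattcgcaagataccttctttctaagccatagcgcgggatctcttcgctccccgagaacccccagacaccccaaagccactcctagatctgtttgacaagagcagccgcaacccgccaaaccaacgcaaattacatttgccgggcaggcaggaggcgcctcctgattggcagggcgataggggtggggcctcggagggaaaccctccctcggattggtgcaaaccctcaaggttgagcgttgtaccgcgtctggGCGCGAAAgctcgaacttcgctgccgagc
Cdc25a, chr9:109875329-109875628, plus strand: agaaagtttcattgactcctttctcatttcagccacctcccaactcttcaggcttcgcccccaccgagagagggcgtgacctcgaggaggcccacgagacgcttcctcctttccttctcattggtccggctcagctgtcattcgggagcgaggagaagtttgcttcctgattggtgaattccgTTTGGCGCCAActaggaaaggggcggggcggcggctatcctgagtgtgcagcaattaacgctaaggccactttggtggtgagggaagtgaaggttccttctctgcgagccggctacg
Chek2, chr5:110839733-110840032, plus strand: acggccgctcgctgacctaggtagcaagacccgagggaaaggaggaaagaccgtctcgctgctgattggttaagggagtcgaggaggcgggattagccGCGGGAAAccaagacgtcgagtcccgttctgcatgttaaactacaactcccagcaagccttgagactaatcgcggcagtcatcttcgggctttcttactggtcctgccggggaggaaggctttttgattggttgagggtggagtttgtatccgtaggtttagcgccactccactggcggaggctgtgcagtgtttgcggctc
Chek1, chr9:36726609-36726908, minus strand: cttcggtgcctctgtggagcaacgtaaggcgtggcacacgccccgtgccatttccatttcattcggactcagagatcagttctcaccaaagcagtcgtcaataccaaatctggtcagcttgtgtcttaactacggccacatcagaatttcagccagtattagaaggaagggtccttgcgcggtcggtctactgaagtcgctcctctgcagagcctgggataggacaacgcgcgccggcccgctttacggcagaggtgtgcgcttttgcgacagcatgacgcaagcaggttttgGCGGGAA
Atm, chr9:53536622-53536921, minus strand: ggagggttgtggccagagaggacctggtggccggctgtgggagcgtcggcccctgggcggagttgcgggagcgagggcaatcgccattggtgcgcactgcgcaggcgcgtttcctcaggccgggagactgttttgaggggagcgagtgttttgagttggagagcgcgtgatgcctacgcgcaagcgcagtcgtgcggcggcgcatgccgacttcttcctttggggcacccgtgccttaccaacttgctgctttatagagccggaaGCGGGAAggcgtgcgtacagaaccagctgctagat
From the RefSeq start, the first base of the match was the 44th in Chek1, the 22nd in Clspn and the 16th in Atm. It lay 129 bases before that start in Topbp1 (132 for a 7-letter match that overlaps it), 67 in Cdc25a and 152 in Chek2. The RefSeq start lies inside the GENCODE gene span given below for Chek1, Clspn, Atm, Topbp1 and Chek2, so these positions hold for the RefSeq start alone. In Chek1 the 7 letters ended with the last base of the window, so the window could not show whether an 8-letter match continued there. Matches therefore occurred in promoters of genes that rose and of genes that were not called, and the promoter of Rad17, which rose, had none. The CCAAT box was found in 5 of the 9 promoters, against 37.4% of all promoters and 43.9% of tested genes. The CHR element (TTTGAA or TTCGAA), known from genes of late cell cycle phases, was found in 1, that of Atr. It was found in 19.2% of all promoters and for 16.8% of tested genes. A match is a string of letters and not a measured site of binding.

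The genes at the top of the ATR arm were not called in either direction. Atr (ENSMUSG00000032409, chr9:95857597-95951781, plus strand) had 34.7, 23.1 and 22.7 CPM in control libraries 1, 2 and 3 and 22.6, 31.3 and 26.4 CPM in cKO libraries 1, 2 and 3. The cKO libraries lay within the range of the controls but for one that lay just below it. Its log2 fold change was -0.0016 (S.E. 0.21, 95% interval -0.47 to 0.47, adjusted p = 0.997, edgeR). Atrip (ENSMUSG00000025646, chr9:109057933-109074124, minus strand), which carries ATR to RPA, had 60.1, 42.4 and 52.0 CPM in control and 51.8, 62.4 and 53.5 CPM in cKO. The groups overlapped here too, with a log2 fold change of 0.12 (S.E. 0.16, 95% interval -0.24 to 0.47, adjusted p = 0.687). Exons of Trex1 on the same strand cover 16% of the exon bases of Atrip in GENCODE M21, so reads there could have been counted for either gene, and antisense exons cover 3.07% and 1.96% of those of Atr.

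Among the genes that act beside ATR at the clamp, the members Topbp1 and Rad17 rose. The clamp genes Rad1 (log2 fold change 0.34), Hus1 (-0.035) and Rad9a (-0.045) were not called. Nor were Rad9b (-1.31), Rhno1 (-0.26) and Etaa1 (0.093), other partners of the ATR arm. Topbp1 (ENSMUSG00000032555, chr9:103305215-103350428, plus strand), the ATR activator, had 102, 161 and 136 CPM in the control libraries and 172, 227 and 259 CPM in the cKO libraries. Every cKO library was above every control library, but the gap between cKO 1 and control 2 was narrow. The mean rose from 133 ± 29.8 to 219 ± 44.1 CPM (log2 fold change 0.72, S.E. 0.19, adjusted p = 0.0397, edgeR, n = 3). This call was lost without control 3 (adjusted p = 0.0868), cKO 2 (0.10) or cKO 3 (0.169), and on log2(FPKM + 1) with limma (0.0819).

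Rad17 (ENSMUSG00000021635, chr13:100617164-100651051, minus strand) encodes the large subunit of the loader that places the 9-1-1 clamp. It had 53.8, 39.9 and 39.7 CPM in control and 68.8, 67.0 and 70.6 CPM in cKO. The cKO libraries were close to each other and all above the controls, of which control 1 was the highest. The mean rose from 44.5 ± 8.10 to 68.8 ± 1.78 CPM (log2 fold change 0.63, S.E. 0.15, adjusted p = 0.0300, edgeR, n = 3). The call was lost without control 2 (adjusted p = 0.113), control 3 (0.0933), cKO 1 (0.0873), cKO 2 (0.0678) or cKO 3 (0.125), and on log2(FPKM + 1) with limma (0.0666), and it held without control 1 (0.00416).

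Clspn (ENSMUSG00000042489, chr4:126556935-126593903, plus strand), the mediator between ATR and CHK1, was not called. It had 18.4, 35.9 and 34.8 CPM in control and 48.1, 40.2 and 55.2 CPM in cKO, so that the groups stood apart and control 1 lay far below the other controls. The means were 29.7 ± 9.81 and 47.8 ± 7.49 CPM, with a log2 fold change of 0.69 (S.E. 0.24, 95% interval 0.15 to 1.23, adjusted p = 0.0977, edgeR, n = 3). DESeq2 gave an adjusted p of 0.0360 for the same counts, and without control 1 the log2 fold change was 0.43 (adjusted p = 0.0978, edgeR).

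Chek1 (ENSMUSG00000032113, chr9:36708482-36727065, minus strand), the effector kinase of ATR, changed most among the 10 genes. It had 20.6, 26.0 and 35.8 CPM in the control libraries and 63.9, 68.4 and 85.4 CPM in the cKO libraries. The lowest cKO library was well above the highest control library. The mean rose from 27.5 ± 7.67 to 72.6 ± 11.4 CPM (log2 fold change 1.40, S.E. 0.21, 95% interval 0.94 to 1.86, adjusted p = 0.00605, edgeR, n = 3). Leaving out each library in turn gave log2 fold changes of 1.23 to 1.64 with adjusted p of 0.00391 to 0.0453, and the call held in all 6 of these fits and in the 8 other settings.

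Neither kinase gene of the ATM arm was called. Atm (ENSMUSG00000034218, chr9:53439149-53536740, minus strand), the double-strand break kinase, had 27.4, 32.8 and 33.0 CPM in control and 20.9, 33.5 and 26.4 CPM in cKO. The highest and the lowest of the 6 values were both cKO libraries (log2 fold change -0.21, S.E. 0.20, 95% interval -0.64 to 0.23, adjusted p = 0.535, edgeR). Chek2 (ENSMUSG00000029521, chr5:110839979-110874145, plus strand), the effector kinase of ATM, had 9.44, 16.2 and 14.5 CPM in control and 16.1, 11.6 and 17.9 CPM in cKO. These ranges overlapped, and the log2 fold change of 0.18 (S.E. 0.26, 95% interval -0.40 to 0.76, adjusted p = 0.703, edgeR) had an interval that includes the estimates for Topbp1 and Rad17.

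Of the genes that act on the cyclin-dependent kinases, the inhibitory kinase rose and the activating phosphatase was not called. Wee1 (ENSMUSG00000031016, chr7:110122046-110143286, plus strand) had 40.5, 44.3 and 49.4 CPM in control and 92.9, 80.0 and 111 CPM in cKO. The controls were close together and all cKO libraries lay far above them. The mean rose from 44.7 ± 4.46 to 94.6 ± 15.5 CPM (log2 fold change 1.08, S.E. 0.15, 95% interval 0.74 to 1.42, adjusted p = 0.00501, edgeR, n = 3). Across the fits without each library the log2 fold change was 0.95 to 1.18 with adjusted p of 0.00394 to 0.0406, and the call held in all 6 and in the 8 other settings. Cdc25a (ENSMUSG00000032477, chr9:109875579-109893895, plus strand), which removes the phosphates that WEE1 adds, had 67.0, 89.6 and 89.3 CPM in control and 81.1, 64.3 and 85.8 CPM in cKO. The groups overlapped (log2 fold change -0.09, S.E. 0.16, 95% interval -0.45 to 0.27, adjusted p = 0.767, edgeR).

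**Figure D2:**
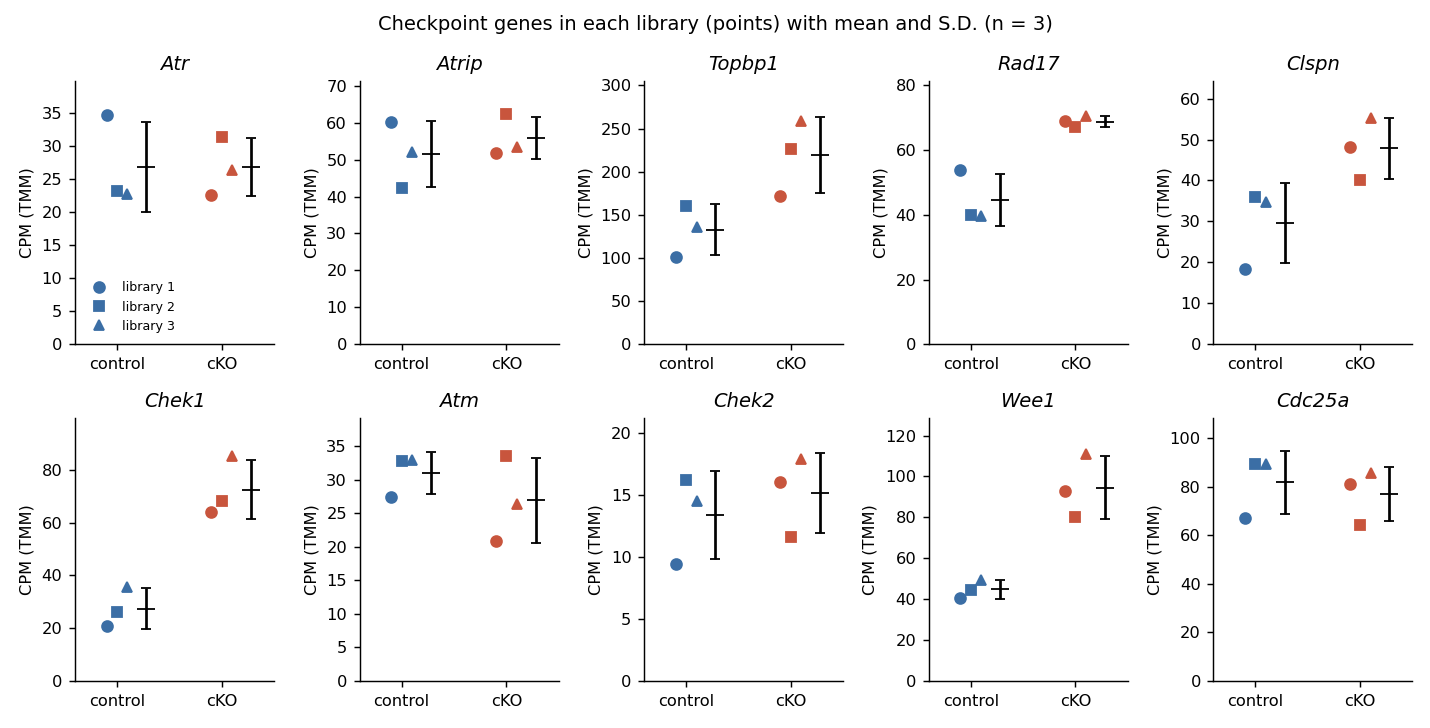
Level of each checkpoint gene in CPM with TMM scaling (y axis from 0) in the 3 control and 3 cKO libraries, with the mean and S.D. beside each group and the marker shape giving the library number. The groups are apart for Chek1, Wee1, Topbp1, Rad17 and Clspn, and overlap for Atr, Atrip, Atm, Chek2 and Cdc25a.

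The same library tended to be low or high for many of the genes at once. Control 1 was the lowest control for 7 of the 10 genes and the highest for the other 3, which were Atr, Atrip and Rad17. Of the cKO libraries, cKO 3 was the highest for 7 genes and the lowest for none. The coefficient of variation between libraries of a group ranged from 9.96% (Wee1) to 33.1% (Clspn) in control and from 2.59% (Rad17) to 23.5% (Atm) in cKO.

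Levels of different genes were set side by side on the deposited FPKM, which are scaled to length. In control the order by mean FPKM was Topbp1 (28.2 ± 6.16), Cdc25a (25.1 ± 4.26), Atrip (20.2 ± 3.21), Clspn (17.3 ± 5.45), Rad17 (16.1 ± 3.29), Wee1 (13.0 ± 1.11), Chek1 (9.15 ± 1.44), Chek2 (8.12 ± 2.01), Atm (4.48 ± 0.936) and Atr (3.31 ± 0.890). Neighbours in this order overlapped in range, except that Wee1 stood above Chek1 and Chek2 above Atm. In cKO Topbp1 led at 51.8 ± 10.8 FPKM, apart from the next gene. Wee1 (27.8 ± 4.35), Clspn (27.5 ± 3.40), Rad17 (25.4 ± 0.287), Chek1 (24.4 ± 3.56), Cdc25a (23.6 ± 4.15) and Atrip (21.9 ± 2.31) followed, each overlapping with its neighbours among these 6. Chek2 (10.5 ± 0.476) stood apart from its neighbours, and Atr (3.34 ± 0.554) and Atm (3.09 ± 0.429) overlapped at the low end. Between the genotypes, Chek2 was higher and Atm lower on FPKM in each cKO library than in any control library, while on CPM both overlapped, and neither was called on log2(FPKM + 1) with limma (differences of 0.35 and -0.41). The Chek1 level thus lay beside that of Chek2 in control, with overlapping ranges, and beside that of Cdc25a in cKO. For Cdc25a and Wee1 the order turned, with 20.1, 27.3 and 27.8 FPKM of Cdc25a against 12.0, 12.8 and 14.2 FPKM of Wee1 in control, and 27.1, 19.0 and 24.6 FPKM against 27.4, 23.7 and 32.4 FPKM in cKO. Cdc25a was above Wee1 in each control library and below it in each cKO library, by a small margin in cKO 1.

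**Figure D3:**
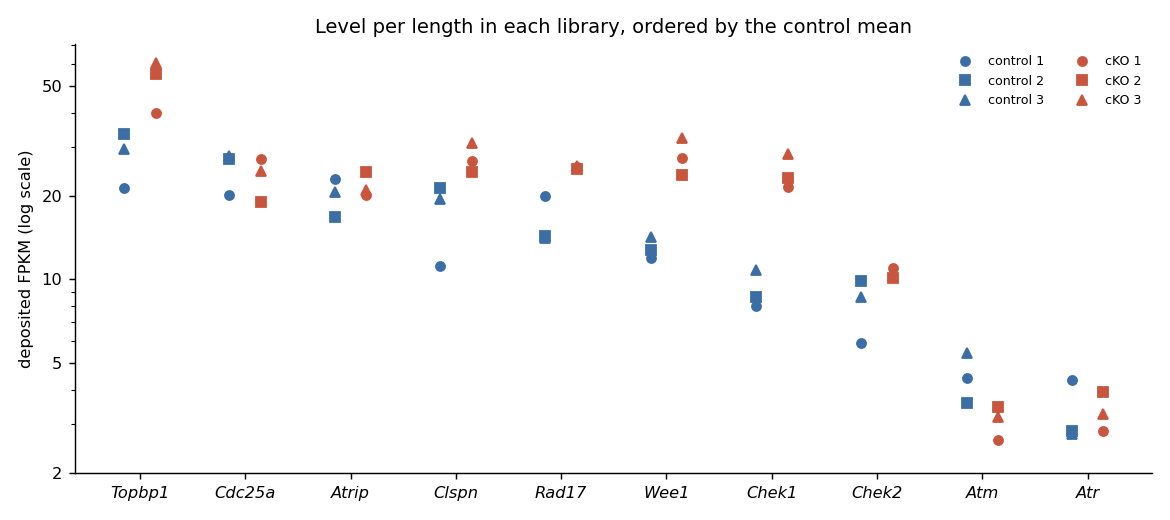
Deposited FPKM of each checkpoint gene in each library on a log axis, ordered by the control mean, with controls in blue and cKO in red. Chek1 and Wee1 move from means of 9.15 and 13.0 FPKM in control to 24.4 and 27.8 FPKM in cKO. Their cKO ranges overlap those of Cdc25a and Atrip, though the Wee1 mean lies above both ranges. Atr and Atm stay lowest in both groups.

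Ratios within a library do not depend on how libraries are scaled. On the log2 scale, Chek1 minus Chek2 was 1.12, 0.67 and 1.29 in control and 1.98, 2.55 and 2.25 in cKO, a difference of 1.23 with the groups apart. Cdc25a minus Wee1 was 0.72, 1.02 and 0.85 in control and -0.20, -0.32 and -0.37 in cKO, a difference of -1.16 with the groups apart. Each of these comparisons, and the one of Chek1 with S phase genes below, had p = 0.1 in a two-sided exact permutation test (adjusted p = 0.1 over the 3 ratios), which is the smallest value that 3 against 3 libraries allow.

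Genes of origin licensing and S phase moved with genotype as well. Of 15 such genes 11 rose and 0 fell (13 higher and 0 lower at an unadjusted p below 0.05, and 0 lower by DESeq2 or limma-voom), with a median log2 fold change of 0.84. Their summed level was 4190 to 6121 CPM in control and 7903 to 10085 CPM in cKO, and 3 of the 15 were called without cKO 3. Of 15 G2 and M phase genes 0 were called by edgeR (0 higher and 1 lower at an unadjusted p below 0.05, with 1 lower by DESeq2 and 0 by limma-voom), with a median of -0.021. The log2 level of Chek1 minus the mean log2 level of the 15 S phase genes was -3.35, -3.27 and -3.02 in control and -2.59, -2.62 and -2.51 in cKO. The groups did not overlap, and this difference was 0.64. It was taken against the list mean. Log2 fold changes within the list ranged from 0.15 (Gins2) to 1.38 (Cdc6), and that of Chek1 was 1.40. Relative to the same mean level, Topbp1 (-0.058), Clspn (-0.048), Rad17 (-0.14) and Wee1 (0.29) differed by less than Chek1 and overlapped. Chek2 (-0.59), Atrip (-0.66), Atr (-0.77), Cdc25a (-0.87) and Atm (-1.01) were lower relative to the S phase genes in every cKO library than in any control library. These 5 are the genes that were not called and overlapped on CPM, set against a list that rose. The part of cell cycle stage in the changes of Chek1, Wee1, Topbp1 and Rad17 was not tested.

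**Figure D4:**
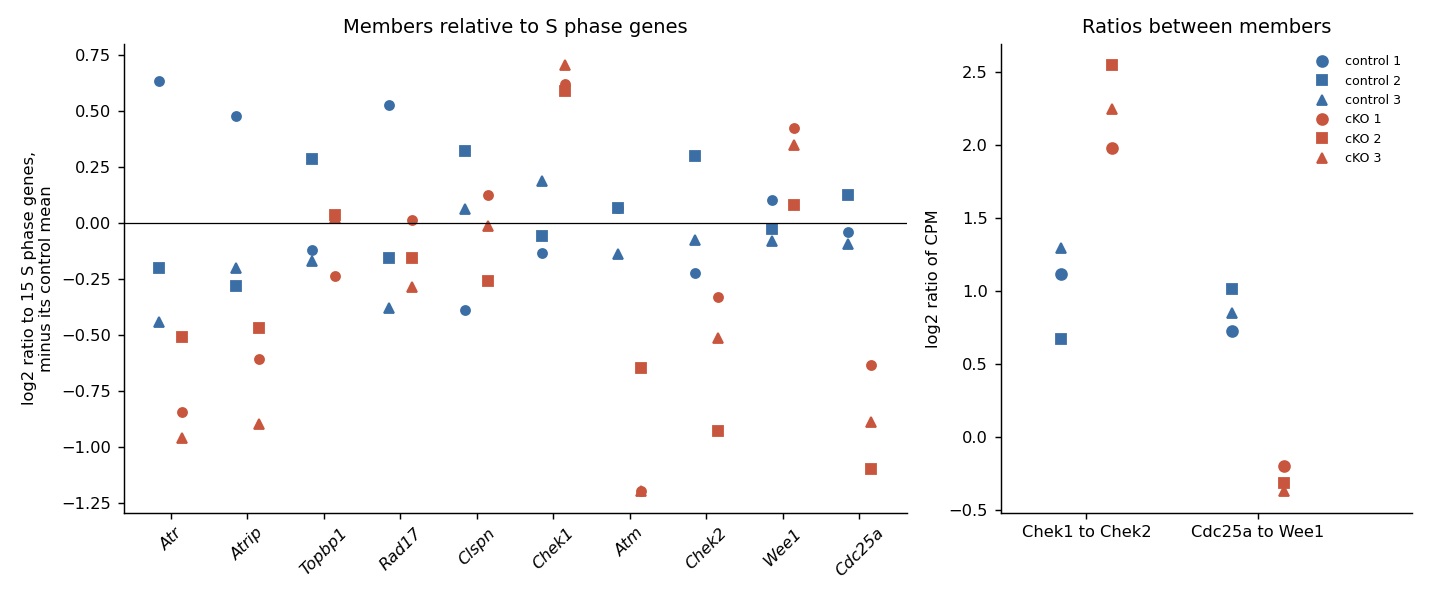
Left, log2 CPM of each checkpoint gene minus the mean log2 CPM of 15 licensing and S phase genes in the same library, set to 0 at the control mean of the gene; right, log2 ratio of CPM of Chek1 to Chek2 and of Cdc25a to Wee1. The cKO libraries (red) lie above the controls (blue) for Chek1 by 0.64 on average, and the ratios differ by 1.23 and -1.16.

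The genes most like Chek1 over the 6 libraries were sought among 9204 genes with a mean of at least 5 CPM, by the root mean square distance between log2 CPM values centred on their own means. The nearest were Cdc6 (0.0819), a loader of the replicative helicase, Kbtbd6 (0.151), Syce2 (0.154), Ccne2 (0.161), which encodes cyclin E2, and Exo1 (0.165), a DNA exonuclease, where the median over all genes was 0.792. Cdc6, which is one of the S phase genes above, had 96.8, 115 and 148 CPM in control and 254, 314 and 372 CPM in cKO. Among the other checkpoint genes Wee1 was the nearest at 0.247, which ranked 23 of 9204, followed by Clspn (0.408, rank 179) and Topbp1 (0.413, rank 182). Rad17 (0.542) ranked 716, and Chek2, Atrip, Cdc25a, Atr and Atm lay at 0.663 to 0.868. The values were centred over both groups, so a gene with a fold change like that of Chek1 lies near it by this measure. The nearest genes had log2 fold changes from 1.19 (Syce2) to 1.48 (Kbtbd6), against 1.40 for Chek1. These distances describe 6 libraries and were given no test.

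Of 55 further genes of the ATR and ATM pathways, 11 rose, 3 fell and 41 were not called, with a median log2 fold change of 0.18. By the same rule 4.47% of all tested genes rose and 5.89% fell, so the falls were near the share of all genes. Among 16 partners of the ATR arm 6 rose and 0 fell (8 higher and 0 lower at an unadjusted p below 0.05, and 0 lower by DESeq2 or limma-voom), with a median of 0.36. They were Rpa2, a subunit of the single-strand binding protein RPA (log2 fold change 0.84), Timeless (0.63) and Tipin (0.69), which form the fork protection complex, Wdhd1 (0.78), a replisome component, and Rfc3 (0.87) and Rfc4 (0.94), small subunits of the clamp loaders. Rfc4, for instance, had 68.2, 106 and 129 CPM in control and 186, 194 and 202 CPM in cKO (adjusted p = 0.0172, edgeR). The 3 partners of highest level among those not called had log2 fold changes of -0.11 for Rpa1, 0.0052 for Rfc2 and 0.40 for Rfc5. Subunits of one complex therefore gave different calls, though a difference between subunits was not tested.

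Among 11 partners of the ATM arm 3 rose and 1 fell, with a median of 0.19, where 4.47% of all tested genes rose and 5.89% fell. Nbn (0.84), a subunit of the MRN break sensor, Brca1 (1.06), a repair ubiquitin ligase subunit, and Rif1 (0.83), an end protection factor, rose. The fall was in H2ax, the histone variant that ATM phosphorylates at breaks, which had 335, 507 and 573 CPM in control and 223, 235 and 211 CPM in cKO. All cKO libraries were below all controls (log2 fold change -1.08, S.E. 0.18, adjusted p = 0.00811, edgeR). The other MRN subunits were not called, with log2 fold changes of -0.17 for Mre11a and -0.18 for Rad50, and the acetyltransferase gene Kat5 had 0.38. Of 5 genes that stabilise the ATM and ATR kinases as proteins 0 were called by edgeR, DESeq2 or limma-voom (1 higher and 0 lower at an unadjusted p below 0.05), among them Ruvbl1 (0.11), Ruvbl2 (0.43) and Tti1 (-0.0023).

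Of 15 targets and regulators of the cyclin-dependent kinases 1 rose and 0 fell, where 4.47% of all tested genes rose and 5.89% fell. At an unadjusted p below 0.05, 5 were higher and 1 lower. DESeq2 called 3 higher and 0 lower, and limma-voom 1 higher and 0 lower. The gene that rose was Ccne2, with 81.8, 94.7 and 105 CPM in control and 200.2, 203 and 262 CPM in cKO (log2 fold change 1.24, S.E. 0.15, adjusted p = 0.00349, edgeR). Mdm4 (-0.40), the mitotic cyclin gene Ccnb1 (0.25) and Cdk2 (0.27) had the highest levels among those not called. Cdkn1a, a cyclin-dependent kinase inhibitor gene named here after its values were seen, had 4.82, 4.22 and 10.4 CPM in control and 15.9, 10.4 and 22.2 CPM in cKO. Library cKO 2 lay just below control 3, so the ranges overlapped, and the gene was not called (log2 fold change 1.31, S.E. 0.39, adjusted p = 0.0569, edgeR).

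Among 8 brakes and turnover factors of the checkpoint 1 rose and 2 fell, with a median of -0.013, where 4.47% of all tested genes rose and 5.89% fell. Dtl, the substrate receptor of a ubiquitin ligase that acts on chromatin-bound PCNA, had 149, 142 and 152 CPM in control and 286, 308 and 380.2 CPM in cKO (log2 fold change 1.14, S.E. 0.13, adjusted p = 0.00349, edgeR). Btrc encodes a form of the F-box protein β-TrCP, which marks CDC25A, WEE1 and Claspin for degradation. It fell from 52.6 ± 3.69 to 30.9 ± 3.54 CPM (log2 fold change -0.77, adjusted p = 0.0129, edgeR, n = 3). Fbxw11, the other β-TrCP gene, had a higher level, at 174 ± 22.0 CPM in control and 142 ± 0.781 CPM in cKO. It was not called (log2 fold change -0.29, adjusted p = 0.152, edgeR), so the fall of Btrc does not stand for β-TrCP transcripts as a whole. Ppp2ca, a catalytic subunit gene of the phosphatase PP2A, had 184, 499 and 591 CPM in control and 144, 109 and 131 CPM in cKO. Control 1 lay near the cKO libraries, yet the groups were apart (log2 fold change -1.73, S.E. 0.34, adjusted p = 0.0135, edgeR). An antisense gene covers 39.9% of the exon bases of Ppp2ca, and it is not known here if reads were counted by strand. Usp7 (-0.012) and Ppp5c (-0.014) were not called either.

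The partner calls rested on single libraries more than those of Chek1 and Wee1. Without cKO 3, 12 of the 14 calls were lost, at adjusted p of 0.0509 to 0.151, and Ccne2 and Dtl were kept. The calls lost were 6 without cKO 1, 5 without control 2, 2 without cKO 2 (Timeless and Wdhd1) and 1 without control 3 (Wdhd1), and 0 without control 1. On log2(FPKM + 1) with limma 7 were lost, while 0 were lost under the 7 other settings of tool, scaling, filter or block.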

How the data were processed

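Total RNA was extracted from sorted DP thymocytes, and 6 libraries, 3 per genotype, were sequenced. The labels name a SMARTER kit for library preparation, and the methods of the study name other kits. The submitters' processing notes name fastp 0.18.0, Bowtie2 2.2.8, HISAT2, StringTie 1.3.1 and RSEM, with no role or order. Genome build, annotation and strand setting were not given in the sources used here. In 1 table, the authors deposited the counts of reads per gene in each library, not normalized. Its FPKM columns hold the authors' values per gene length and library size. Its log2, p-value and false discovery columns hold the comparison made by the authors and were not used, and the columns of group means of the authors were not used.

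Counts were compared in R 4.3.3 with edgeR 4.0.16 (filterByExpr with a minimum count of 10 and total of 15, TMM, quasi-likelihood test, genotype as the only term, Benjamini-Hochberg adjustment). CPM used TMM factors, and log2 CPM a prior count of 2. Alternatives were DESeq2 1.42.0, limma-voom (limma 3.58.1), RLE factors, total counts alone, no filter, a mean of 5 CPM, the replicate number as a block, log2(FPKM + 1) with limma, a prior count of 0.5 for the ratios, and leaving out each library. Within groups the chi-square between libraries was 19.7 to 68.0 per degree of freedom, so none was a duplicate. Of these fits, the main edgeR fit alone was tested on simulated data. Gene positions came from GENCODE M21 on GRCm38, matched by identifier, and promoters from RefSeq on GRCm38.p6. The checkpoint genes and all lists were chosen with earlier results of these data known. Named were the 10 genes, every partner that was called, up to 3 partners per list that were not and had the highest mean CPM, and the 5 genes most like Chek1. Rad1, Hus1, Rad9a, Rad9b, Rhno1 and Etaa1 were named in addition, after their values were seen. With 3 libraries per group, an exact permutation test cannot go below p = 0.1 over its 20 assignments. Of the other marker lists (single-positive thymocyte, B cell, erythroid, neutrophil, NK cell and thymic epithelial), edgeR called Foxo1 and Gzma higher and Cd79b lower. Proteins and phosphorylation were not analysed here.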

Additional observations from a re-analysis of the deposited data

How the results depend on the processing

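Chek1 and Wee1 were called higher under every alternative, and the calls of Topbp1 and Rad17 were lost when single libraries were left out, as given with each gene. Of the 10 checkpoint genes, 4 were higher, and 2 on log2(FPKM + 1) with limma and 2 to 4 when each library was left out in turn (2 without control 3, cKO 2 or cKO 3), while 0 were called lower throughout. Among the 55 partners, 11 were higher, with 5 on log2(FPKM + 1) and 2 to 13 when each library was left out. The 3 partners that were lower became 0 to 4. Over all tested genes 514 were higher, with 953 by DESeq2, 251 on log2(FPKM + 1) and 42 to 1000 without each library in turn, and 677 were lower, with 281 on log2(FPKM + 1) and 78 to 1030 without each library, the lowest without cKO 3 and the highest without control 1. The cause of these shifts was not tested. Paxbp1 (log2 fold change 0.92 by edgeR, adjusted p = 0.0977) passed the threshold by DESeq2 (0.93, adjusted p = 0.0226), by limma-voom (1.08, adjusted p = 0.0390) and without control 1 (1.50, adjusted p = 0.00170), in a range of 0.68 to 1.50 without each library.

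The sign turned only for genes near 0. Atr (-0.0016) became 0.0098 by DESeq2, 0.021 by limma-voom, 0.0099 with RLE factors, 0.015 with total counts alone, 0.014 with a mean of at least 5 CPM, 0.021 on log2(FPKM + 1), 0.22 without control 1, 0.11 without cKO 1 and 0.0064 without cKO 3. Without each library in turn, Atr ranged from -0.13 to 0.22, Chek2 from -0.017 (without control 1) to 0.34, Atrip from -0.0057 (without control 2) to 0.24 and Cdc25a from -0.22 to 0.022 (without cKO 2). None of these was called under any setting.

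The labels number the replicates 1 to 3 in both groups. The deviations of same-numbered libraries from their group means had correlations over genes of 0.045, 0.038 and -0.030. Not every library correlated best with its own number, so these values show no pairing by number. With all correlations near 0, they cannot tell whether the numbers mark pairs. With the replicate number as a block, the same count of 4 checkpoint genes was called, with log2 fold changes of 1.43 for Chek1 (adjusted p = 0.00331), 1.07 for Wee1 (adjusted p = 0.00521), 0.73 for Topbp1 (adjusted p = 0.0116), 0.64 for Rad17 (adjusted p = 0.0350) and 0.015 for Atr, and the partner calls were 12 higher and 3 lower. The lowest counts among the 10 genes were those of Chek2, with 182 to 388 in a library.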

Other observations

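Dividing the count of a gene by its deposited FPKM and by the total count of the library, up to a constant, gives the length that the FPKM values imply. For Wee1 this length was 3418 to 3420 nt in all libraries, and for Atr 8046 to 8064 nt. For Chek2 it was 1613, 1634 and 1649 nt in control and 1476, 1163 and 1743 nt in cKO, a highest-to-lowest ratio of 1.50. For Atm it was 6271, 9075 and 5945 nt in control and 8023, 9800 and 8263 nt in cKO, a ratio of 1.65. Over 8660 genes with at least 100 counts in each library the median ratio was 1.04, and 2.33% exceeded that of Chek2 and 1.24% that of Atm. The spread did not separate the genotypes in either gene. On log2(FPKM + 1) the differences of cKO from control were 0.35 for Chek2 and -0.41 for Atm, against log2 fold changes of 0.18 and -0.21 on counts, and neither was called on either scale. On FPKM the groups did not overlap, with 5.91, 9.82 and 8.64 for Chek2 in control and 11, 10.1 and 10.3 in cKO, and 4.42, 3.57 and 5.44 for Atm in control and 2.62, 3.46 and 3.19 in cKO, whereas on CPM both genes overlapped. Chek1 also varied, with 2594, 2968 and 3254 nt in control and 2990, 2974 and 3004 nt in cKO.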
